A study of Mus musculus with 4 samples.

Results

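Solute carriers are membrane proteins that move sugars, amino acids, ions, lipids, nucleosides, vitamins and mitochondrial metabolites across membranes. In the endothelium, the cell layer that lines blood vessels, they set which nutrients pass from blood to tissue and feed the cells' own metabolism. Some act at the plasma membrane, whereas the Slc25 family works in the inner mitochondrial membrane and the Slc35 family mostly in the endoplasmic reticulum and Golgi apparatus. The genes described here are the rows of the gene table whose symbol is Slc followed by a digit and whose mean over the 4 libraries was at least 5 FPKM (a level scaled by transcript length and by sequencing depth). Of 24346 genes in the table, 373 carried such a symbol and 107 reached that level. The remaining 266 lay under it, 63 of them at 1 to 5 FPKM and 203 under 1 FPKM, with 79 listed at 0 in every library. The rule also set aside 2 symbols, neither of which reached 5 FPKM, so no member was lost to it.

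RNA was measured in endothelial cells purified by fluorescence-activated sorting from hearts of mice on the C57BL/6 background, labelled as Young and as taken straight from tissue. The genotypes were ECp53KO, with the libraries ECp53KO_170 and ECp53KO_172, and wild type, with Ctrl_178 and Ctrl_182. The labels do not spell out ECp53KO; it is read here as loss of p53 in endothelial cells, and no Cre driver or deleted exon is given. They also do not say that each library came from its own mouse, so every p-value below measures only the spread between these libraries, which may be technical.

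Trp53, the gene for p53 on chromosome 11, was at 4.41 and 2.45 FPKM in ECp53KO against 52.1 and 28.8 FPKM in Ctrl. Its log2 fold change was -3.20 ± 0.36 (SE), with an adjusted p of 0.146 in the limma fit across all tested genes. All 12 endothelial markers were present, with summed levels of 6549 to 6848 FPKM. Summed cardiomyocyte markers were 507 and 320 FPKM in ECp53KO against 309 and 294 FPKM in Ctrl. Myl2 and Mb, the highest by mean, were at 145 and 81.1 FPKM against 81.8 and 66.0 FPKM, and at 86.3 and 59.9 FPKM against 55.8 and 51.7 FPKM. Ryr2 and Ttn were under 1 FPKM in all libraries. Of 12 tested cardiomyocyte markers, 4 were higher and 0 lower without overlap, where all tested genes had 19.1% and 16.8%. Summed erythroid markers were 464 FPKM in ECp53KO_170, 98.4 FPKM in ECp53KO_172 and 69.3 and 42.5 FPKM in Ctrl, and summed mural cell markers were 176 and 140 FPKM against 98.1 and 118 FPKM. Leukocyte markers summed to between 5.78 and 11.3 FPKM, with 8 of 12 under 1 FPKM in every library. Fibroblast markers summed to between 49.3 and 66.4 FPKM. Without overlap, 6 of 7 tested erythroid markers were higher and 0 lower, and 3 of 11 mural markers were higher and 0 lower. Of 7 tested fibroblast markers 2 were higher and 4 lower, and of 2 leukocyte markers 0 and 1. The part of these other cells in the results below was not tested. Slc8a1, the sodium-calcium exchanger of heart muscle, stayed at or under 0.35 FPKM and Slc4a1, the red cell anion exchanger, at or under 0.09 FPKM. Both were picked after their values were seen and do not stand for the other markers of those cells, given above.

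The promoters of 5 genes with lower values in ECp53KO are shown first, because these carriers recur in the comparison below. They were picked after their values were seen. Each line holds the 250 bases before an annotated start, from RefSeq on build GRCm38.p6, written 5′ to 3′ on the gene's strand. Slc25a25 has 3 such windows, and only the window nearest the 5′ end of the gene is shown. Capitals mark matches to GGGCGG (the GC box) or CCAAT on either strand.

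Slc2a1: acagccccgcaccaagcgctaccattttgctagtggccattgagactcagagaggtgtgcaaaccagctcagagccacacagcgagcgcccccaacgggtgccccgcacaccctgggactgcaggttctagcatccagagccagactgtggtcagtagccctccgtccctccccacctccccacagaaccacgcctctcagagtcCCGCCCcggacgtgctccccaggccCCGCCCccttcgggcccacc
Slc2a8: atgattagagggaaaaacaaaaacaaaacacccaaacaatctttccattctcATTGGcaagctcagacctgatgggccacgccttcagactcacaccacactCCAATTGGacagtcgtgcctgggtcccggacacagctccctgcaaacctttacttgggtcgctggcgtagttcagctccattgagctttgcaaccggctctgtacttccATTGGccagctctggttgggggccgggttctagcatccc
Slc38a2: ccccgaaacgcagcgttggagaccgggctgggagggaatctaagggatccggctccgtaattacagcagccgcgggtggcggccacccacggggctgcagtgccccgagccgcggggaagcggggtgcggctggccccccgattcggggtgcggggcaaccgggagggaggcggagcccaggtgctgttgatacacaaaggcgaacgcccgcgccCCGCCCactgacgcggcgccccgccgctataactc
Slc25a25: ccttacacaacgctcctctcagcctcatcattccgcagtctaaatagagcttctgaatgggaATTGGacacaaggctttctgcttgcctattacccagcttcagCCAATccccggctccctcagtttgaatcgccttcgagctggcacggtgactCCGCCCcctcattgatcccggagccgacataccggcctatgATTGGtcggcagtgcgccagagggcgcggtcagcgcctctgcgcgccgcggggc
Slc10a6: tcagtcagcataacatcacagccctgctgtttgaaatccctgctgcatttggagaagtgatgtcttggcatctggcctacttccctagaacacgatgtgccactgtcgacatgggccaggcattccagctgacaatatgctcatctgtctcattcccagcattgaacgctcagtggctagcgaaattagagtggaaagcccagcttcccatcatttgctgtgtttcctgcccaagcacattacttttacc

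These windows lie at chr4:119108495-119108744 on the plus strand for Slc2a1 and, all on the minus strand, at chr2:32982084-32982333 for Slc2a8, chr15:96699729-96699978 for Slc38a2, chr2:32451471-32451720 for Slc25a25 and chr5:103629404-103629653 for Slc10a6. Slc2a1 held 2 GC boxes and no CCAAT, and Slc38a2 held 1 GC box and no CCAAT. Slc2a8 held 4 CCAAT matches, of which the pair at -148 and -145 overlap on opposite strands, and no GC box. Slc25a25 held 1 GC box and 3 CCAAT matches, and Slc10a6 held neither. None of the 5 windows held CACGTG (the E box), TGATGNAAN (a C/EBP-ATF element), TATAAA (the TATA box) or a p53 half-site, which says only that these letters are not in the windows. The motifs were also chosen with earlier results known.

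A RefSeq window was found for 83 of the 107 genes. A GC box was present in 66.3% of these and in 32.7% of all 32851 windows, and the median GC content was 60.8% and 52.4%. CCAAT was present in 34.9% and 33.8%, CACGTG in 8.43% and 6.02%, TGATGNAAN in 3.61% and 3.44%, and TATAAA in 4.82% and 12.4%. A p53 half-site was present in 8.43% and 7.13%, and a pair of adjacent half-sites in 0% and 0.0639%. All windows include several starts for some genes and starts of noncoding genes, so the shares are descriptions.

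The level of these genes spanned more than 2 orders of magnitude. Of the 107, 8 had a mean over 100 FPKM, 32 lay at 20 to 100, 33 at 10 to 20 and 34 under 10. Slc9a3r2 stood first at 1079 and 1257 FPKM in ECp53KO against 1002 and 1153 FPKM in Ctrl. It encodes a scaffold protein and is itself no carrier. It was above the next gene, Slc26a10, in all 4 libraries. Slc26a10, Slc43a3, Slc6a6, Slc25a4, Slc25a5, Slc25a3 and Slc50a1 followed, with means from 250 down to 132 FPKM. Neighbours in this run overlapped across libraries, whereas Slc50a1 lay above Slc28a2, at 97.1 FPKM, without overlap. At the lower end, Slc25a16 at 5.39 FPKM and Slc35d2 at 5.78 FPKM were just inside the 5 FPKM line, and Slc26a11 at 4.97 FPKM, with Slc36a1 and Slc45a4 at 4.96 FPKM each, just outside it.

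**Figure D1:**
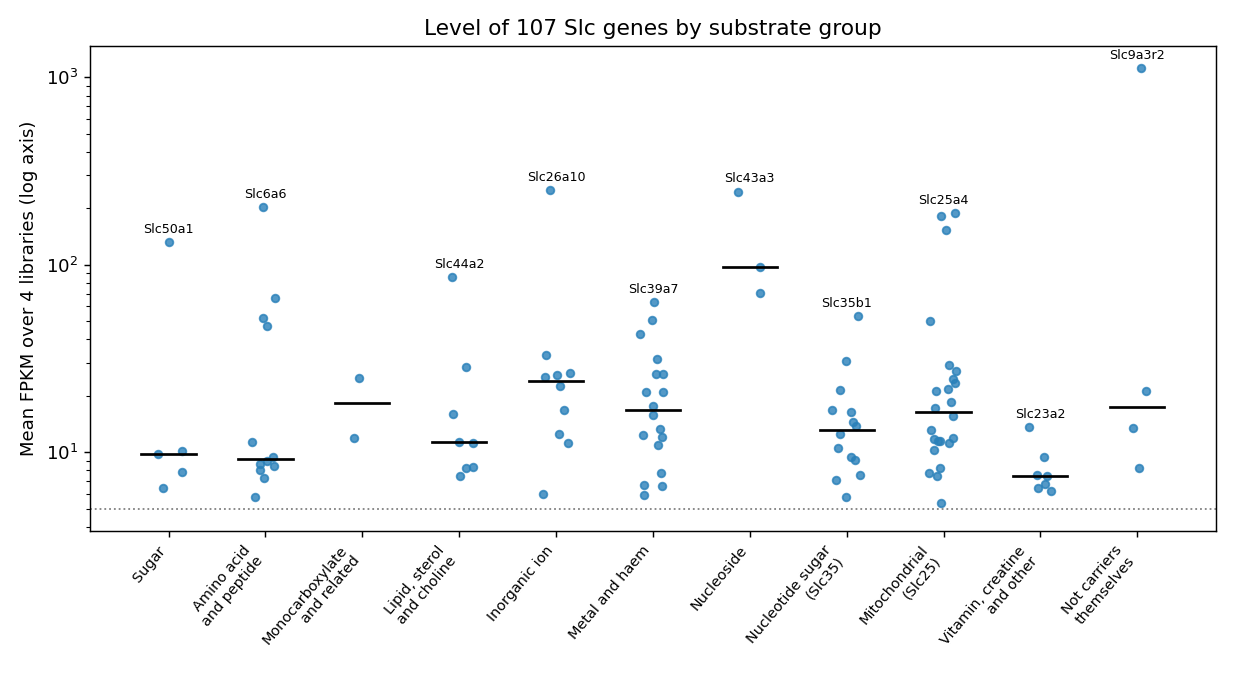
Mean FPKM over the 4 libraries (vertical log axis) of the 107 Slc genes, by substrate group (horizontal axis). Each point is a gene, the bar is the group's median, the dotted line is 5 FPKM and names mark the highest gene of a group, for all groups but the monocarboxylate carriers. Slc9a3r2, which is no carrier, stands above all others at 1123 FPKM.

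ECp53KO was then compared with Ctrl. None of the 107 passed an adjusted p of 0.05 (limma with Benjamini-Hochberg adjustment over 11332 genes), in either direction. Over all tested genes 0.0265% were called higher and 0.0882% lower, and the smallest adjusted p among the 107 was 0.864. At an unadjusted p under 0.05, 0 were higher, where the background was 1.97%, and 6 were lower, which is 5.61% against a background of 2.82%. Those described below are Slc2a8, Slc2a9, Slc38a2, Slc25a25 and Slc10a6, each with an adjusted limma p of 0.864. Both ECp53KO libraries stood above both Ctrl libraries in 14 genes, or 13.1% against 19.1% of all tested genes, and below them in 24, or 22.4% against 16.8%. Rescaled to TPM, where the median log2 fold change of all tested genes moved from 0.01 to -0.10, these counts were 6 above and 25 below, where all tested genes had 10.9% and 22.3%. The fold change was negative in 64 genes (59.8%, against 48.3%). The members were chosen by level, which uses the same libraries, and with earlier results known, so these shares are given as descriptions.

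Most differences were small. The median log2 fold change was -0.03 over the 107 genes and 0.01 over all tested genes. It lay within 0.25 of 0 in 81 genes and exceeded 1 in size only in Slc10a6. Between replicates, the median difference was 0.22 in ECp53KO and 0.14 in Ctrl on the same scale. The 95% interval of a fold change had a half-width of 0.36 to 1.122, with a median of 0.46, which sets the precision of 2 libraries a group. A permutation test of a single gene with this design cannot give an exact p under 0.333.

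**Figure D2:**
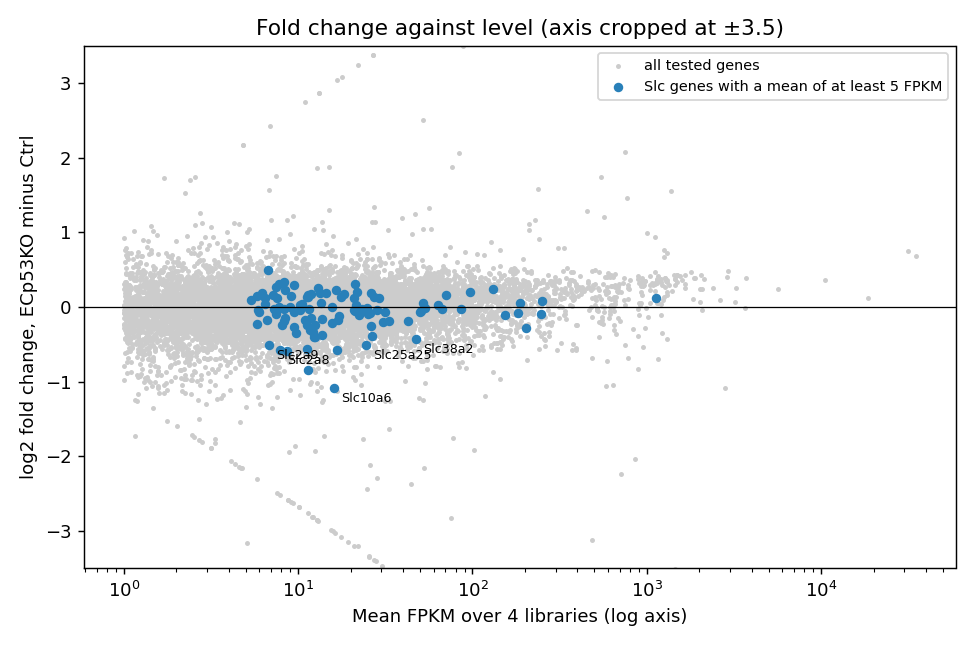
Log2 fold change, ECp53KO minus Ctrl, on the log2(FPKM + 1) scale (vertical axis) against mean FPKM (log axis), with all tested genes in grey and the 107 Slc genes in blue. The 5 labelled genes had an unadjusted p under 0.05 and all lie below 0.

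Among sugar carriers, 5 of 26 rows reached 5 FPKM. Slc50a1, a sugar carrier of the SWEET family, was at 166 and 121 FPKM in ECp53KO against 106 and 135 FPKM in Ctrl, with overlap. Slc2a1 encodes GLUT1, the main glucose carrier of most endothelium. It was at 8.35 and 8.57 FPKM in ECp53KO against 11.5 and 10.6 FPKM in Ctrl. Both ECp53KO libraries lay below both Ctrl libraries, with a log2 fold change of -0.35 ± 0.16 (SE). Slc2a1 did not reach an unadjusted p of 0.05 in limma, where its p was 0.074. Slc2a8 encodes GLUT8, which sits mainly on membranes inside the cell. It was at 5.89 and 6.32 FPKM against 10.1 and 9.09 FPKM, again without overlap, and its log2 fold change was -0.57 ± 0.16 (SE). Slc37a3 and Slc37a4, the latter the glucose 6-phosphate carrier of the endoplasmic reticulum, overlapped between genotypes. Slc2a3, the neuronal-type glucose carrier, had a mean of only 1.14 FPKM.

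Slc2a9 belongs to the same family as the GLUT genes but carries urate, and was grouped with vitamin, creatine and other carriers. It was at 5.34 and 5.52 FPKM in ECp53KO against 8.266 and 8.002 FPKM in Ctrl. The genotypes were apart, with a log2 fold change of -0.51 ± 0.16 (SE). The other 6 genes of that group ranged from -0.38 to 0.19. Slc23a2, a vitamin C carrier, was at 10.6 and 12.98 FPKM against 16.8 and 14.3 FPKM. Slc6a8, the creatine carrier, was at 7.31 and 9.72 FPKM against 10.2 and 10.4 FPKM. Both were lower without overlap and neither reached an unadjusted p of 0.05. Without ECp53KO_170 the log2 fold change of Slc23a2 went from -0.38 to -0.24 and that of Slc6a8 from -0.26 to -0.08. Slc46a3, a lysosomal carrier, and Slc52a3, a riboflavin carrier, overlapped.

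**Figure D3:**
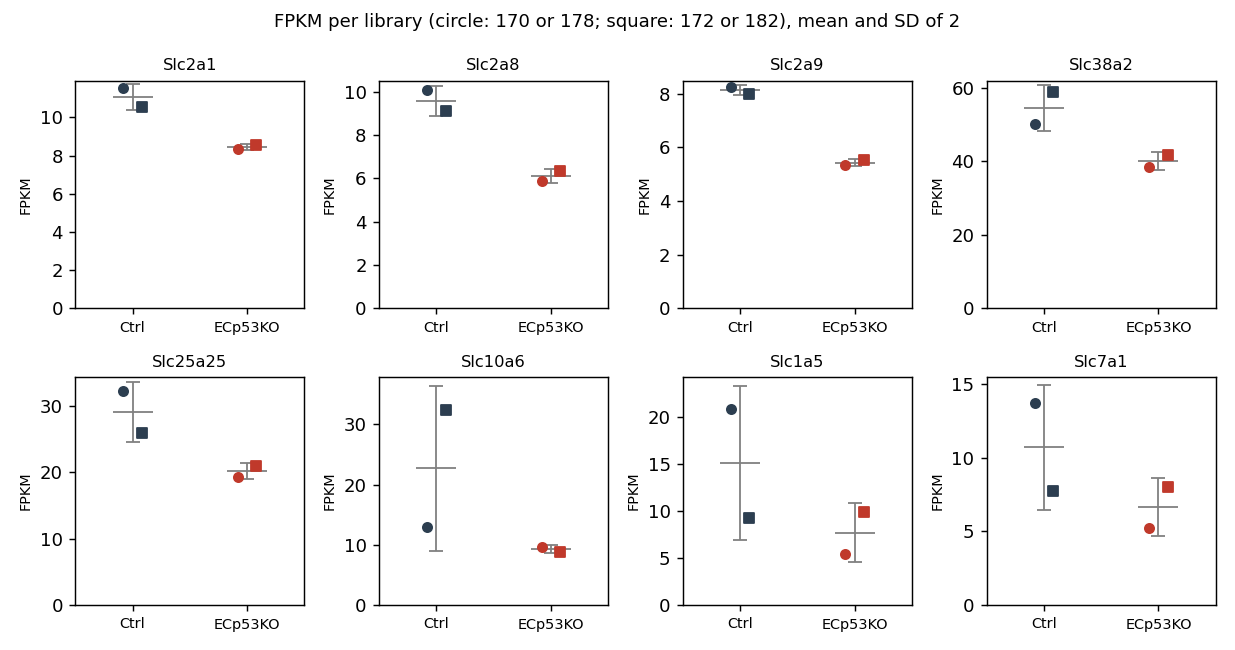
FPKM in each library (vertical axes start at 0) for 8 Slc genes by genotype, where the long horizontal bar is the mean and the whiskers the SD of 2 libraries. The genotypes overlap only in Slc1a5 and Slc7a1 of these 8, and in those and Slc10a6 1 Ctrl library lies well above the other.

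Among amino acid and peptide carriers, 12 of 68 rows reached 5 FPKM. Of the 12, 10 had negative fold changes, where all tested genes had 48.3%, and the median was -0.14. Slc6a6, the taurine carrier, was at 148 FPKM in ECp53KO_170 and at 222, 228 and 214 FPKM in ECp53KO_172, Ctrl_178 and Ctrl_182. Its log2 fold change of -0.28 therefore rested on ECp53KO_170 and was 0.0092 without it. Slc3a2, the heavy chain that carries several amino acid exchangers to the surface, overlapped at 64.9 and 66.4 FPKM against 59.1 and 75.6 FPKM. Its partner Slc7a5, a large neutral amino acid carrier, lay below the level rule at 1.38 and 3.22 FPKM against 6.63 and 5.09 FPKM, a gap without overlap that the rule left out. Genes under the rule did not all go down. Slc25a15, of the mitochondrial group, was higher without overlap at 3.93 and 3.74 FPKM in ECp53KO against 2.22 and 2.36 FPKM in Ctrl.

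Slc38a2 encodes SNAT2, a sodium-coupled carrier of small neutral amino acids. It was at 38.4 and 41.7 FPKM in ECp53KO against 49.97 and 58.8 FPKM in Ctrl. All of the ECp53KO values were below the Ctrl values, with a log2 fold change of -0.43 ± 0.16 (SE). The promoter shown above for Slc38a2 is GC rich, at 72.0%. Slc38a10 overlapped at 53.3 and 52.5 FPKM against 56.6 and 45.5 FPKM.

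Slc1a5, the glutamine carrier ASCT2, and Slc7a1, the arginine carrier CAT1, were singled out after their values were seen. Slc1a5 was at 5.45 and 9.92 FPKM against 20.9 and 9.28 FPKM, and Slc7a1 at 5.26 and 8.03 FPKM against 13.7 and 7.715 FPKM. In both genes Ctrl_178 was highest, ECp53KO_170 was lowest and the genotypes overlapped. Without Ctrl_178 the log2 fold change of Slc1a5 went from -0.84 to -0.29 and that of Slc7a1 from -0.59 to -0.21. Without ECp53KO_170 they were -0.46 and -0.33, and without Ctrl_182 -1.38 and -0.97. Slc7a7, a light chain for cationic amino acids, was the 1 gene of the group above Ctrl without overlap, at 9.65 and 8.71 FPKM against 7.95 and 7.34 FPKM.

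Inorganic ion carriers had 10 of 57 rows at the level, 9 of them with negative fold changes and a median of -0.15. Over all tested genes 48.3% were negative. The 10 leave out the adaptor Slc4a1ap, at a log2 fold change of 0.06, which was moved out of this group after values were seen. Slc20a1, a phosphate carrier, was at 23.9 and 21.8 FPKM against 35.1 and 25.7 FPKM, without overlap, with a log2 fold change of -0.38. That value was -0.16 without Ctrl_178 and -0.60 without Ctrl_182. Slc26a10, the highest of the group, and Slc12a4 and Slc12a7, which move potassium and chloride out of cells, overlapped. Slc26a10 shares 17.8% of its exon bases with B4galnt1 on the other strand, and the libraries keep no strand, so its level is uncertain. B4galnt1 had a mean of 9.89 FPKM against 250 FPKM for Slc26a10, and its part in that level was not tested.

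Metal and haem carriers formed 18 of 33 rows, 5 of them above and 5 below Ctrl without overlap, with a median log2 fold change of -0.05. Each count is 27.8% of the group, where all tested genes had 19.1% above and 16.8% below. Slc39a7, the zinc carrier of the endoplasmic reticulum, stood highest at 66.1 and 61.0 FPKM against 65.3 and 59.7 FPKM and overlapped. It shares 80.7% of its exon bases with Gm20427 on the same strand. Slc39a1, a zinc importer, and Slc31a2, a copper carrier, overlapped too. Slc48a1, which moves haem out of lysosomes, was at 36.7 and 43.66 FPKM against 47.5 and 43.72 FPKM, lower by a narrow margin. Slc39a10, a zinc importer, was higher without overlap at 28.1 and 27.9 FPKM against 25.0 and 23.9 FPKM. Slc30a6, a Golgi zinc carrier, had the largest positive fold change of the 107 at 9.13 and 6.85 FPKM against 4.30 and 6.47 FPKM, which is 0.50 ± 0.25 (SE). It was 0.26 without Ctrl_178, 0.32 without ECp53KO_170 and 0.75 without Ctrl_182.

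Lipid, sterol and choline carriers formed 8 of 23 rows. Slc44a2 and Slc44a1, the choline-like carriers, led the group and overlapped, at 82.4 and 87.6 FPKM against 91.9 and 81.0 FPKM for Slc44a2. Slc10a6 encodes a carrier of sulfated steroids. It was at 9.71 and 8.77 FPKM in ECp53KO, 13.02 FPKM in Ctrl_178 and 32.4 FPKM in Ctrl_182. Ctrl_182 stood far above the other libraries, and the log2 fold change was -1.08 ± 0.42 (SE). Without Ctrl_182 it was -0.46, and without Ctrl_178 it was -1.71. Slc27a4, a long-chain fatty acid carrier, was at 7.81 and 8.60 FPKM against 6.37 and 6.93 FPKM, higher without overlap. Slc10a7 overlapped.

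Nucleoside and nucleobase carriers were few, 3 of 8 rows, but all were high. Slc43a3, a purine nucleobase carrier, was at 234 and 240 FPKM against 226 and 283 FPKM. Slc28a2, which takes up purine nucleosides with sodium, was at 106 and 102 FPKM against 88.3 and 92.3 FPKM, higher without overlap. Slc29a1, the equilibrative nucleoside carrier, was at 79.2 and 70.5 FPKM against 74.7 and 59.0 FPKM. None reached an unadjusted p of 0.05.

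Mitochondrial Slc25 carriers were the largest group, 24 of 47 rows, and their median log2 fold change was -0.02. Slc25a4 and Slc25a5, which exchange ADP for ATP, were at 217 and 168 FPKM against 197 and 171.7 FPKM, and at 203 and 154 FPKM against 191 and 184 FPKM. Slc25a3, the phosphate carrier, was at 155 and 141 FPKM against 166 and 152 FPKM. All 3 overlapped, as did Slc25a39, a carrier needed for mitochondrial glutathione. Slc25a25 exchanges ATP-magnesium for phosphate, and was at 19.3 and 21.0 FPKM in ECp53KO against 32.2 and 25.9 FPKM in Ctrl. It was lower without overlap, with a log2 fold change of -0.50 ± 0.17 (SE). Slc25a25 and Slc2a8 lie on chromosome 2, with 522 kb between them.

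Carriers of nucleotide sugars, which feed glycosylation in the Golgi, formed 14 of 27 rows with a median of 0.04. Slc35b1, which brings ATP into the endoplasmic reticulum, was at 54.9 and 51.0 FPKM against 48.9 and 58.6 FPKM. Slc35a3, a carrier of UDP-N-acetylglucosamine, also overlapped. Slc35a4 was at 25.7 and 31.13 FPKM against 34.1 and 31.24 FPKM, and Slc35f5 at 15.5 and 16.1 FPKM against 17.5 and 18.3 FPKM, both lower without overlap.

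Monocarboxylate carriers and their relatives had 2 of 21 rows at the level. Slc16a1, the lactate carrier MCT1, had a mean of 1.89 FPKM. Among 4 genes that carry the symbol but are no carriers, Slc9a3r1, a scaffold like Slc9a3r2, was higher without overlap at 9.28 and 9.42 FPKM against 6.91 and 7.495 FPKM (log2 fold change 0.34 ± 0.16 SE). Slc7a6os was also higher without overlap, at 26.6 and 20.7 FPKM against 17.5 and 20.2 FPKM, and Slc4a1ap overlapped. The log2 fold change of Slc7a6os was 0.30, and 0.13 without ECp53KO_170.

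**Figure D4:**
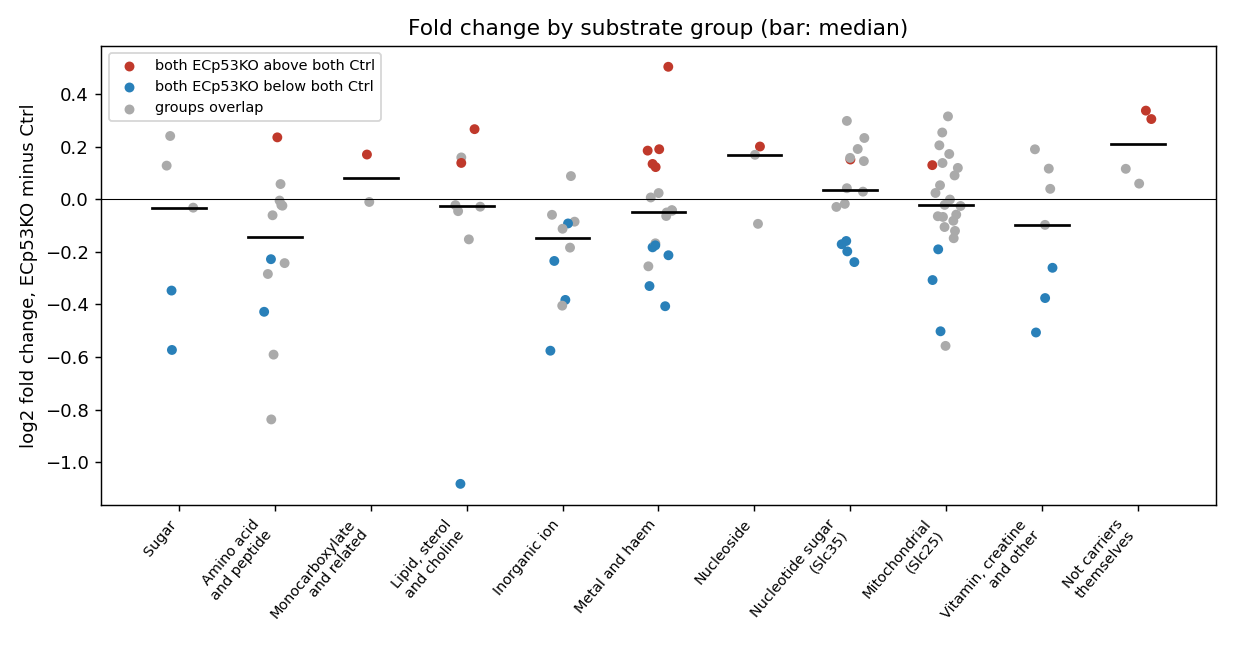
Log2 fold change, ECp53KO minus Ctrl (vertical axis), of the 107 Slc genes by substrate group, with the bar at the group's median. Red and blue points are the 14 and 24 genes whose genotypes do not overlap, and no group lies wholly on one side except the 4 genes that are not carriers.

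Chromosome 11 holds Trp53 and 8 of the genes. Slc16a13, a relative of the lactate carriers 0.62 Mb from Trp53, was at 13.1 and 12.3 FPKM in ECp53KO against 11.6 and 10.7 FPKM in Ctrl. Slc25a11, the oxoglutarate carrier 1.05 Mb from Trp53, was at 29.5 and 27.7 FPKM against 26.3 and 25.7 FPKM. These are the 2 members within 10 Mb. Both were higher without overlap, as were 19.1% of all tested genes. Their log2 fold changes were 0.17 and 0.13, and neither reached an unadjusted limma p of 0.05. Farther along the chromosome, Slc22a5 at 15.7 Mb and Slc9a3r1 at 45.6 Mb were also higher without overlap. Of the 8 genes, 2 had negative fold changes. Slc25a11 shares 8.92% of its exon bases with Rnf167 on the other strand, which had a mean of 102 FPKM. The libraries keep no strand, so the level of Slc25a11 is uncertain.

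Carriers that go by other symbols were read from a list of 28 names, of which 14 were tested. At an unadjusted p under 0.05, 0 were higher and 2 were lower, where all tested genes had 1.97% and 2.82%. Ucp2, a mitochondrial carrier of the Slc25 family, was at 152 and 158 FPKM in ECp53KO against 218 and 293 FPKM in Ctrl, a log2 fold change of -0.70 ± 0.21 (SE). Slco2a1, the prostaglandin carrier, was at 6.65 and 7.57 FPKM against 9.48 and 12.6 FPKM, with -0.56 ± 0.20 (SE). Of 12 genes for proteins that work beside carriers, 11 were tested and none reached an unadjusted p of 0.05 in limma. Among them Bsg, the chaperone of lactate carriers, was at 320 and 226 FPKM against 223 and 208 FPKM, and Cd36, a fatty acid receptor, at 3273 and 3164 FPKM against 2402 and 3952 FPKM.

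Transcript length moved with the fold change. In ECp53KO_170 the level relative to the other 3 libraries had a Spearman correlation with length of -0.35 over the 107 genes and -0.44 over all tested genes, which share the library and its preparation. The 36 shortest genes had a median log2 fold change of 0.08, with 15 negative, and the 36 longest a median of -0.08, with 27 negative. The median length was 4189 bases for amino acid and 4470 for inorganic ion carriers, the groups with mostly negative fold changes, against 3276 for all tested genes. Metal carriers, with a median log2 fold change of -0.05, were also long at 4284.5. The part of length in the lower values above was not tested beyond the alternative with the length trend removed. Under it Slc2a8 was at -0.59, Slc2a9 at -0.51, Slc25a25 at -0.50 and Slc38a2 at -0.36. The first of these are 3120, 3602 and 3821 bases long, near the median of all tested genes. Slc38a2, at 6116 bases, went from -0.43 to -0.36. These genes do not stand for the amino acid and inorganic ion groups.

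**Figure D5:**
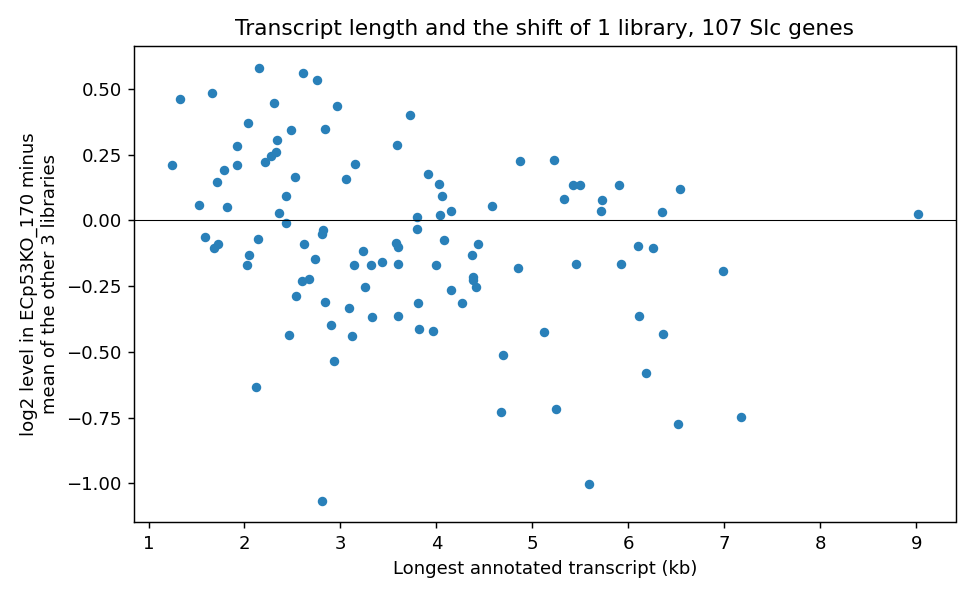
Log2 level in ECp53KO_170 minus the mean of the other 3 libraries (vertical axis) against the longest annotated transcript in kb (horizontal axis) for the 107 Slc genes. Longer genes tend to lie lower, with a Spearman correlation of -0.35.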

How the data were processed

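Libraries were poly-A selected, made with a non-stranded kit and read in pairs, per the labels' protocols. Build mm10 and the tools TopHat2 2.1.0, Cufflinks 2.2.1, Trimmomatic 0.36, FastQC 0.11.5 and bcl2fastq 2.17 are listed, without their roles, per the submitters' processing notes. The authors deposited 1 table of FPKM values per gene and library. No counts were used here. If the steps between low values are 1 fragment each, depth was 9900000 to 22100000 fragments, and the fewest behind a member was about 100.

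Values were fitted as log2(FPKM + 1) in limma 3.58.1 (R 4.3.3) with an intensity trend over 11332 genes with a mean of at least 1, 2 libraries a genotype, two-sided, with Benjamini-Hochberg adjustment at 0.05. The pseudocount of 1 understates changes of low genes. The scripts were tested on simulated data. Members and lists were chosen with earlier results of these data known. Named genes are the 4 highest of each substrate group, up to 6 a direction without overlap by smallest p, and those within 10 Mb of Trp53. Slc1a5, Slc7a1, Slc7a5, Slc25a15, Slc2a3, Slc16a1, Slc37a4, Slc8a1, Slc4a1, Ucp2, Slco2a1, Bsg and Cd36 were added after their values were seen. Slc4a1ap, an adaptor, was moved out of the ion group after values were seen. Some members are counted but not reported here by name. Alternatives covered the pseudocount, filters, scaling, small RNA loci, length, limma's options and each library left out. Of the members, 38 share exon bases with another gene, 10 of them over 10%.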

Additional observations from a re-analysis of the deposited data

How the results depend on the processing

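Across 15 alternatives no member passed an adjusted p of 0.05 in either direction, nor 0.1 in the fit as reported. At an unadjusted p under 0.05, 4 members were higher with no filter on low values, and 3 were lower with no intensity trend, against 0 and 6. All tested genes had 2.14% higher and 2.99% lower in those fits. Leaving out 1 library gave 0 to 1 higher and 1 to 8 lower: 1 lower when Ctrl_178 was left out, 2 for Ctrl_182, 2 for ECp53KO_170 and 8 for ECp53KO_172. All tested genes lower in those fits were 1.85%, 2.30%, 3.02% and 7.78%, so the 8 go with a larger share of all genes. Over 13 alternatives the log2 fold change ranged from -0.70 to -0.51 for Slc2a8 and -0.66 to -0.35 for Slc25a25. It ranged from -0.64 to -0.49 for Slc2a9, -0.55 to -0.31 for Slc38a2 and -1.71 to -0.46 for Slc10a6. The unadjusted limma p was 0.152 for Slc10a6 with no filter on low values and 0.061 for Slc38a2 with no intensity trend. These alternatives refit the same 4 libraries in which the genes were picked, so they are no further evidence. Leaving out 1 library leaves a genotype with 1, which is assumed to vary like the other genotype. Genotypes then overlap less by construction, with 31 to 35 members higher and 34 to 47 lower without overlap, and 32.5% to 42.5% and 29.5% to 35.7% of all tested genes. Rescaling to TPM gave 6 higher without overlap, where all tested genes had 10.9%. A level of at least 10 FPKM gave 9, but it drops the 34 members under 10 FPKM. No share of all genes was taken at that level, so the 9 is not a fall from the 14 reported. No paired analysis was possible because the genotypes share no replicate numbers.

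Rescaling to TPM moved the median log2 fold change of all genes from 0.01 to -0.10 and that of the members to -0.14. Under TPM the group medians were -0.26 for amino acid, -0.14 for lipid, -0.16 for metal, -0.14 for mitochondrial, -0.03 for monocarboxylate, 0.098 for the genes that are no carriers, 0.054 for nucleoside and -0.076 for nucleotide sugar carriers. The metal median was -0.066 with the length trend removed and -0.063 with median-of-ratios scaling. With members of at least 10 FPKM the medians were -0.28 for amino acid, 0.12 for genes that are no carriers, -0.018 for nucleotide sugar, 0.10 for sugar and -0.38 for vitamin and other carriers. With 1 library left out they ranged from -0.30 to -0.037 for amino acid, -0.30 to -0.033 for inorganic ion, -0.057 to 0.087 for lipid, -0.088 to -0.0006 for metal, -0.064 to 0.021 for mitochondrial, 0.14 to 0.30 for genes that are no carriers, 0.069 to 0.23 for nucleoside, -0.061 to 0.068 for nucleotide sugar and -0.25 to 0.022 for vitamin and other carriers.

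Of 47 named genes, 21 changed sign under some alternative, in 40 of 648 comparisons, and the largest reported size among them was 0.28. Under TPM, Slc25a4 was at -0.063, Slc26a10 at -0.028, Slc35a3 at -0.084, Slc38a10 at -0.057, Slc39a7 at -0.092, Slc4a1ap at -0.0502 and Slc9a3r2 at -0.0011. With the length trend removed, Slc12a7 was at 0.0021, Slc25a4 at -0.018 and Slc39a7 at -0.0201. With 1 library left out, the log2 fold change ranged from -0.58 to 0.0092 for Slc6a6, -0.20 to 0.15 for Slc3a2, -0.096 to 0.21 for Slc38a10, -0.032 to 0.21 for Slc26a10, -0.19 to 0.0197 for Slc12a7, -0.11 to 0.067 for Slc44a2, -0.18 to 0.092 for Slc44a1 and -0.044 to 0.36 for Slc10a7. It ranged from -0.041 to 0.087 for Slc39a7, -0.13 to 0.033 for Slc39a1, -0.22 to 0.0897 for Slc31a2, -0.13 to 0.24 for Slc25a4, -0.28 to 0.12 for Slc25a5 and -0.23 to 0.10 for Slc25a39. It ranged from -0.0096 to 0.13 for Slc4a1ap, -0.26 to 0.069 for Slc43a3, -0.15 to 0.11 for Slc35b1, -0.085 to 0.14 for Slc35a3, -0.15 to 0.088 for Slc37a3 and -0.35 to 0.16 for Slc52a3. The cause of these changes was not tested.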
